A study of Homo sapiens with 4 samples.

Results

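Transcripts of the inhibitory helix-loop-helix genes of the ID and HES families, of the inhibitory SMAD genes linked to them and of the E-protein genes that ID proteins bind were examined in MM.1S cells, an established human multiple myeloma line, by RNA sequencing. Cultures were given 350 nM JG342, which inhibits HSP70 chaperones allosterically, or the solvent DMSO, and both groups were collected after 26 h in the same growth medium. Each treatment has 2 libraries, described by the submitters as biological duplicates, so that all values concern 1 cell line, 1 dose and 1 time. The set holds 10 genes: ID1, ID2, ID3, HES1, HES4, HES6, SMAD6, SMAD7, TCF3 and TCF4. They were matched by symbol, and 8 of the 10 have a row among the 16057 genes of the deposited table. HES4 and TCF4 were not analysed here. The family was chosen by the measured JG342 to DMSO differences of HES6 and ID1, which are among the largest falls, so the differences of all members between JG342 and DMSO are given as a description and not as a test.

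ID proteins have a helix-loop-helix domain but no basic region, and therefore pair with E proteins such as the product of TCF3 without letting them bind DNA. E proteins drive B-lymphocyte development and antibody gene transcription. HES proteins do bind DNA and repress genes with the help of TLE co-repressors, and HES1 is the classical target of the Notch receptors. HES6 differs from its relatives in that it antagonises HES1. ID genes and the inhibitory SMAD genes SMAD6 and SMAD7 are classical targets of bone morphogenetic proteins (BMP) and TGF-beta, whose receptors phosphorylate signal-carrying SMADs.

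The annotated promoters of the 4 members that fell, and of HES1, which did not pass the threshold, are shown so that the related genes can be compared. Each sequence runs from 250 bases before to 50 bases after the annotated start site in RefSeq (GRCh38.p14), the build of that reference table, since no build is given in the sources used here for the expression values. Capitals mark every match, on either strand, to the E-box CANNTG, the N-box CACNAG bound by HES proteins, the RBPJ core TGGGAA through which Notch acts, the GC element GGCGCC and the SMAD box GTCTG.
HES6 (chr2:238239989-238240288, minus strand): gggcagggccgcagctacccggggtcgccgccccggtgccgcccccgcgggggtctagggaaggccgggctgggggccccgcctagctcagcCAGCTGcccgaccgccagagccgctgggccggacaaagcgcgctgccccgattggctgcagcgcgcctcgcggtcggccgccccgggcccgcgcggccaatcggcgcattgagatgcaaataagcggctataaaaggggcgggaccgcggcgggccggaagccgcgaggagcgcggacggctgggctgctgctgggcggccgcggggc
ID1 (chr20:31605039-31605338, plus strand): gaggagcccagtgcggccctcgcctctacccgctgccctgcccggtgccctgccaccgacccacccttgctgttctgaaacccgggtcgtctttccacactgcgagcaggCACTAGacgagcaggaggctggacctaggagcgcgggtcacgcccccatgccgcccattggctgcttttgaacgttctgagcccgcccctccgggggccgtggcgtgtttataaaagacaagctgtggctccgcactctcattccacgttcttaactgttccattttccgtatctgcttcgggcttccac
ID3 (chr1:23559452-23559751, minus strand): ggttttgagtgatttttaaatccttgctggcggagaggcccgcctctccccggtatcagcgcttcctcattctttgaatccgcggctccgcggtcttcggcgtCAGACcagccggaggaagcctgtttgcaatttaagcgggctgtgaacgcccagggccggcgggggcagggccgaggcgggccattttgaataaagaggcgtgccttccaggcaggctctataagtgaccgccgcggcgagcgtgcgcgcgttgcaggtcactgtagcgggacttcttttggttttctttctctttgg
ID2 (chr2:8681806-8682105, plus strand): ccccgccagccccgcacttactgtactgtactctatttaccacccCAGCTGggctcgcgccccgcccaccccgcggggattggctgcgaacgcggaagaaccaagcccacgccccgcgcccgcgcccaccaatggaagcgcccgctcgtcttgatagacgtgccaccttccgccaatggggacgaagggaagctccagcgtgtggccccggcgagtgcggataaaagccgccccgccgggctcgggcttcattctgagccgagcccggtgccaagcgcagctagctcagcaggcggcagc
HES1 (chr3:194135898-194136197, plus strand): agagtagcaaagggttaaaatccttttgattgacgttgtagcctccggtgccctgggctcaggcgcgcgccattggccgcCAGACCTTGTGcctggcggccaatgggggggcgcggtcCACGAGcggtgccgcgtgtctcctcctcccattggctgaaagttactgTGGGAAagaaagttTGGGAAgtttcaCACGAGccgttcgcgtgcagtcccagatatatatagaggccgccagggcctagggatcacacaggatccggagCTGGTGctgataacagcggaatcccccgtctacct

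The HES1 window held 4 N-boxes, the first base of each lying at -165, -132, -58 and 16 relative to the start site, and 2 RBPJ cores at -84 and -70. HES6 held 1 E-box at -158 and no N-box or RBPJ core. ID2 also held 1 E-box, at -205. ID1 held 1 N-box at -140, and ID3 a single SMAD box at -147. A SMAD box lay also in HES1 at -170, directly beside an N-box. The GC element GGCGCC was in none of the 5 windows. TATAAA was found at -30 in HES6 and, as 2 overlapping matches on opposite strands, at -33 and -31 in ID1. CCAAT was matched in all of them except ID3. Over 35116 promoter windows of this length, 68.7% held an E-box, 38.0% an N-box, 24.0% an RBPJ core, 45.3% a SMAD box, 19.2% the GC element, 11.5% TATAAA and 34.6% CCAAT. Among members that did not pass and are not shown, TCF3 held 1 N-box and 0 RBPJ cores, and of 3 annotated SMAD7 windows 1 held an N-box and 1 held 2 RBPJ cores, so these letters do not separate the members that fell from the others. A match describes letters in the window and does not show that a factor binds there.

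**Figure D1:**
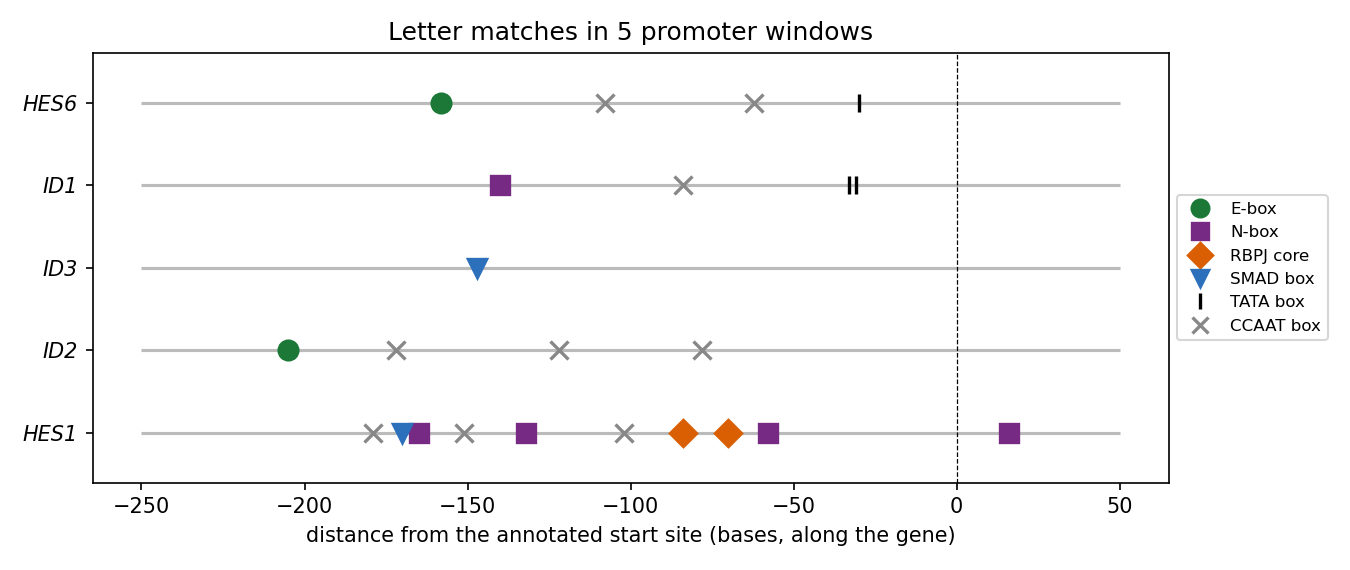
Positions of the searched motifs in the promoter windows of HES6, ID1, ID3, ID2 and HES1, with the distance of each match's first base from the annotated start site on the horizontal axis and 1 row per gene. The 4 N-boxes and 2 RBPJ cores of HES1 stand against at most 1 N-box and no RBPJ core in each of the other windows.

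HES6 (NM_001142853; chromosome 2, 238238267 to 238240038) changed most of all members. Its level was 67.3 and 52.7 TPM (a transcript abundance normalised for length and library size) in DMSO replicates 1 and 2, and 18.1 and 15.5 TPM in JG342 replicates 1 and 2. Both JG342 libraries lay far below both DMSO libraries. The mean went from 60.0 ± 10.3 to 16.8 ± 1.85 TPM (SD, n = 2 each), which is 3.57-fold lower. On the log2(TPM + 1) scale used for all differences, which understates changes of low genes, the difference was -1.77 ± 0.15 (SE), with -1.84 between the libraries numbered 1 and -1.70 between those numbered 2. No gene among the 917 that passed as lower had a larger fall, while among all 12042 fitted genes HES6 was at rank 5.

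HES1 (NM_005524; chromosome 3, 194136148 to 194138732), the Notch target of the same family, did not pass the threshold. It was at 12.03 and 10.98 TPM with DMSO and at 11.7 and 11.8 TPM with JG342, and the JG342 values fell between the DMSO values. The difference was 0.033 ± 0.14 (SE), and its sign was negative after median scaling or quantile normalization (-0.031 and -0.070). In TPM, a level per length, HES6 exceeded HES1 5.59-fold and 4.80-fold with DMSO but 1.54-fold and 1.31-fold with JG342.

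The 3 ID genes were all lower after JG342, ID1 and ID3 by more than ID2. ID1 (NM_002165; chromosome 20, 31605289 to 31606510) was at 10.3 and 15.3 TPM with DMSO and at 3.72 and 4.23 TPM with JG342. Its mean fell from 12.8 ± 3.57 to 3.98 ± 0.36 TPM (SD, n = 2 each), 3.22-fold, with a difference of -1.45 ± 0.20 (SE). ID3 (NM_002167; chromosome 1, 23557926 to 23559501) was at nearly the same levels, with 10.3 and 16.4 TPM in DMSO and 3.71 and 6.1 TPM in JG342. For both genes the groups did not overlap. ID3 fell 2.71-fold, from a mean of 13.3 ± 4.31 to 4.9 ± 1.69 TPM, with a difference of -1.27 ± 0.25 (SE).

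ID2 (NM_002166; chromosome 2, 8682056 to 8684461) was the most abundant ID gene and changed least. It was at 28.6 and 29.6 TPM with DMSO and at 21.4 and 19.4 TPM with JG342, without overlap. Its mean fell from 29.1 ± 0.69 to 20.4 ± 1.48 TPM (SD, n = 2 each), 1.43-fold, with a difference of -0.49 ± 0.12 (SE). The share of ID2 in the summed level of the 3 genes went from 58.2% and 48.3% in DMSO to 74.3% and 65.2% in JG342. A processed pseudogene matches 29.7% of the ID2 transcript at 95.6% identity and an antisense gene overlaps an ID2 exon by 19 bases, so some reads could be shared. No such copy or overlapping exon was found for the other 7 measured members. ID4, the remaining family member, was at 0.05 and 0 TPM with DMSO and at 0.12 and 0 TPM with JG342, too low to be fitted.

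The replicates of ID1 and ID3 differed more than those of ID2 with DMSO, and those of ID3 also with JG342. In the DMSO libraries ID1 was 0.53 and ID3 0.62 higher on the log2 scale in replicate 2 than in replicate 1, against 0.047 for ID2. HES6 went the other way, at 0.35 lower in DMSO replicate 2 (-0.35). In the JG342 libraries replicate 2 was likewise higher than replicate 1 for ID3 and ID1, by 0.59 and 0.15. For ID2 and HES6 it was lower (-0.14 and -0.21). Between the libraries numbered 1 and between those numbered 2, the differences of ID3 were thus close, at -1.26 and -1.29. For ID1 they were -1.25 and -1.64. Leaving out 1 library at a time moved the difference of ID1 between -1.71 and -1.18 and that of HES6 between -1.94 and -1.60, and both passed in every case. ID3 ran from -1.59 to -0.96 and did not pass without DMSO replicate 2 (-0.96). ID2 ran from -0.56 to -0.42 and passed only when JG342 replicate 1 was the library left out. The estimated number of reads behind ID1 was 48 and 72 with DMSO and 16 and 21 with JG342, and behind HES6 407, 319, 102 and 98 in the same order. These read numbers are approximations from the spacing of low values and not counts from a file.

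**Figure D2:**
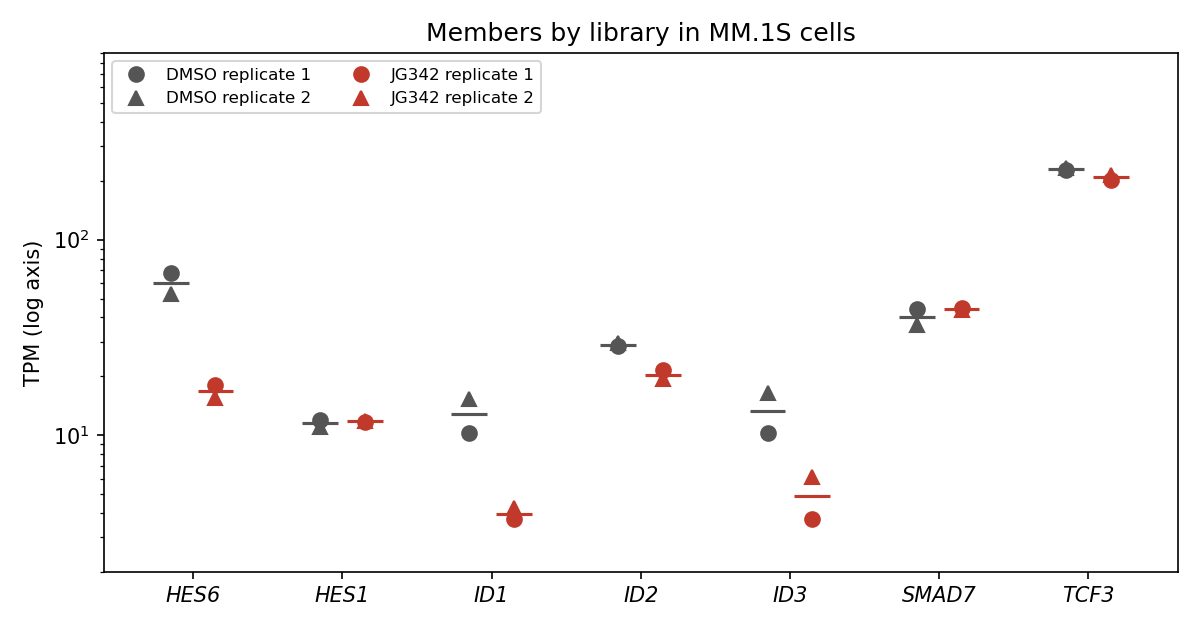
Level of the 7 fitted members in TPM on a log axis, with 1 symbol per library (grey for DMSO, red for JG342, circles for replicate 1, triangles for replicate 2) and a line at each treatment's mean. HES6, ID1, ID2 and ID3 lie lower in both JG342 libraries, at 15.5 to 18.1 against 52.7 to 67.3 TPM for HES6. TCF3, which did not pass, also lies lower in both, whereas HES1 and SMAD7 overlap.

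TCF3 (NM_001136139; chromosome 19, 1609292 to 1652615), the E-protein gene whose product ID proteins bind, was the most abundant member. It was at 227.9 and 233 TPM with DMSO and at 202 and 214 TPM with JG342. The groups did not overlap, but the difference of -0.15 ± 0.090 (SE) did not pass. The summed level of ID1, ID2 and ID3 was 49.1 and 61.2 TPM with DMSO and 28.9 and 29.7 TPM with JG342. Relative to TCF3, the summed ID transcripts amounted to 21.6% and 26.3% in DMSO and to 14.3% and 13.9% in JG342. This compares transcript levels per length, and protein levels were not measured. In bulk RNA, fewer cells with a transcript and less of it per cell cannot be told apart.

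Of the inhibitory SMAD genes, SMAD7 did not pass the threshold and SMAD6 was too low to be compared. SMAD7 (NM_001190821; chromosome 18, 48919853 to 48950965), which blocks TGF-beta and BMP receptors, was at 43.95 and 36.5 TPM with DMSO and at 44.5 and 43.8 TPM with JG342. The groups overlapped, and the difference was 0.14 ± 0.12 (SE), ranging from 0.0064 to 0.27 when 1 library was left out. SMAD6 (NM_005585; chromosome 15, 66702236 to 66782849), which acts mainly on BMP signals, was at 0 and 0.3 TPM with DMSO and at 0.24 and 0.07 TPM with JG342. These values correspond to an estimated 0 to 5 reads, and SMAD6 was left out of the fit for its low level.

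Of the 8 measured members, 7 passed the filter on low values (1 TPM or more on average across libraries). Among them 4 passed the threshold as lower (limma, Benjamini-Hochberg adjusted p under 0.05 over all 12042 fitted genes) and 0 as higher. Over all fitted genes 18.4% passed in either direction and 7.62% as lower. The median difference was -0.49 over the 7 members and 0.027 over all fitted genes. Since this contrast was used to propose the set, nothing is read from that share. Among the 917 genes that passed as lower, ordered by the size of the fall, HES6 was at rank 1, ID1 at rank 7, ID3 at rank 15 and ID2 at rank 555. Among all fitted genes, passing or not, their ranks were 5, 11, 20 and 731. The treatments did not overlap for 5 of the 7 members, against 62.1% of all fitted genes, and in all 5 both JG342 libraries lay below both DMSO libraries, as in 28.2% of all fitted genes.

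**Figure D3:**
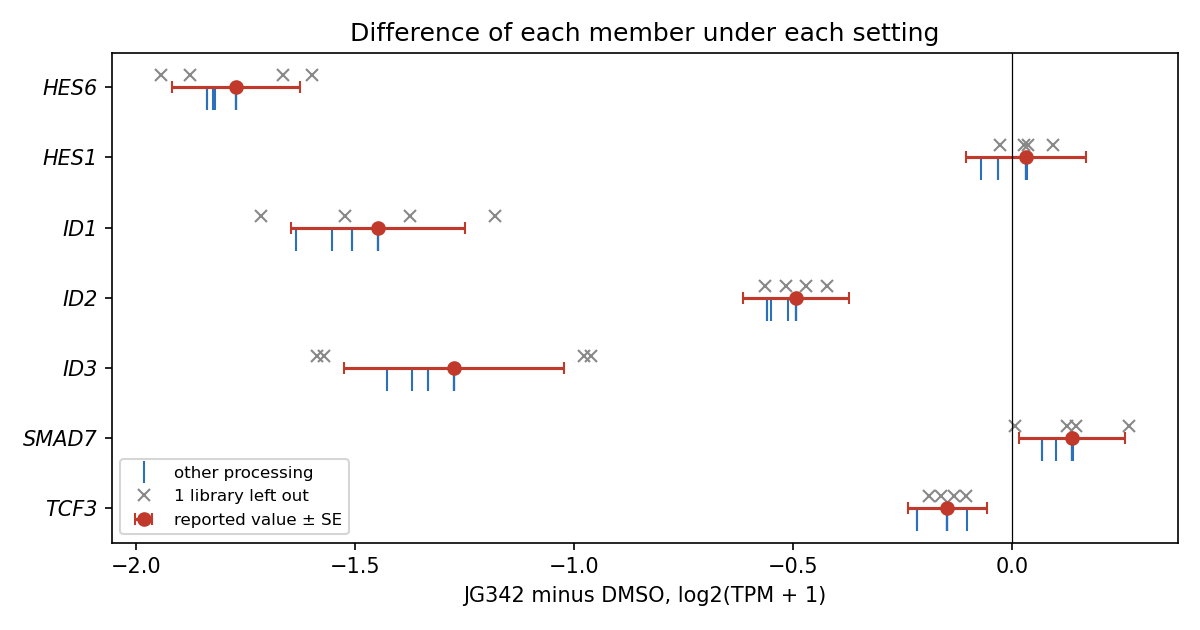
Difference between JG342 and DMSO on the log2(TPM + 1) scale for each fitted member, as the reported value with its standard error (red), under other processing choices (blue bars) and with 1 library left out (grey crosses). HES6, ID1, ID2 and ID3 stay below 0 in each setting shown, as does TCF3, which did not pass, while HES1 takes both signs.

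The order of the members by level changed with treatment. In DMSO the order was TCF3, HES6, SMAD7, ID2, and then ID3, ID1 and HES1, whose ranges of 10.3 to 16.4, 10.3 to 15.3 and 10.98 to 12.03 TPM overlapped, with SMAD6 last. In JG342 it was TCF3, SMAD7, ID2, HES6 and HES1, followed by ID3 and ID1 with overlapping ranges. HES6 thus moved from below TCF3 to below ID2. By its mean level in DMSO, TCF3 ranked 627 among the 16057 genes and HES6 ranked 2678, while ID1, ID3 and HES1 lay close to the middle of the table at ranks 7532, 7416 and 7816.

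The genes whose profile over the 4 libraries was most like that of HES6 and of ID1 were named by the Euclidean distance of log2(TPM + 1) values centred on each gene's mean, among 9813 other genes averaging 5 TPM or more. For HES6 these were CXCL10 (NM_001565), SFN (NM_006142) and CXCR3 (NM_001142797), at distances of 0.40, 0.44 and 0.46. CXCL10, which encodes a chemokine, went from 12.1 and 10.96 to 4.36 and 2.53 TPM, and CXCR3, which encodes its receptor, from 21.3 and 22.6 to 8.67 and 5.75 TPM. For ID1 they were PCDH1 (NM_001278613), AHNAK (NM_001346445) and PCP4 (NM_006198), at distances of 0.045, 0.14 and 0.15. ID3 was the 6th most like ID1, at 0.36, and HES6 was at rank 89. Likeness over 4 libraries of 2 treatments mainly groups genes with a similar size of change.

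The genes upstream of ID and SMAD transcription were taken from 4 lists of BMP and TGF-beta signalling, in which 51 genes were fitted, 5 passed as higher and 2 as lower (13.7%, against 18.4% of all fitted genes). Of the 11 fitted receptor genes 0 passed with limma, and 0 had an unadjusted p under 0.05. The mean level of 9 of these 11 was below 10 TPM. TGFB1 (NM_000660), the ligand gene for TGF-beta 1, fell by 0.48 on the log2 scale, from 43.8 ± 2.99 to 31.2 ± 2.01 TPM (SD, n = 2 each; limma adjusted p 0.0226). GDF11 (NM_005811), a ligand that signals through activin receptors, fell from 7.07 ± 1.17 to 4.03 ± 0.46 TPM (limma adjusted p 0.0307). Both TGFB1 and GDF11 passed only without JG342 replicate 1 when 1 library was left out. INHBE (NM_031479), which encodes an activin subunit, rose from 1.93 ± 0.12 to 9.54 ± 2.43 TPM (limma adjusted p 0.000799). BMP6, the most abundant BMP ligand transcript measured, was at 64.2 and 58.4 TPM with DMSO and at 55.8 and 55.2 TPM with JG342 and did not pass (limma adjusted p 0.386). It was singled out after its values were seen.

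Among 25 fitted signal-carrying SMADs and SMAD regulators, 4 passed as higher and 0 as lower (16.0%, against 18.4% of all fitted genes). SMAD3 (NM_001145102), a carrier of TGF-beta signals, rose from 6.86 ± 1.35 to 17.9 ± 3.18 TPM, by 1.26 ± 0.18 on the log2 scale (limma adjusted p 0.00266). ZFYVE9 (NM_004799), whose product presents SMAD2 and SMAD3 to the receptor, rose from 3.92 ± 0.40 to 8.81 ± 0.26 TPM (limma adjusted p 0.00454). SKIL (NM_001145097), a SMAD co-repressor gene, and RNF11 (NM_014372) rose by 0.60 and 0.62 (limma adjusted p 0.0261 and 0.0126). Neither passed without DMSO replicate 2 or without JG342 replicate 1, and SKIL did not pass after median scaling or quantile normalization either. The SMADs that carry BMP signals did not pass: SMAD1 had a difference of 0.39 (limma adjusted p 0.0511), SMAD5 of -0.11 and SMAD9 of 0.30. These 3 were picked with their values known. Of the secreted BMP antagonists 3 were fitted, and 0 passed with limma or had an unadjusted p under 0.05.

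A group of 4 lists covered Notch signalling and the HES relatives, in which 46 genes were fitted, 8 passed as higher and 2 as lower (21.7%, against 18.4% of all fitted genes). Blocking on replicate number gave 20, 12 as higher and 8 as lower, and after median scaling 10 passed, 5 in each direction. Of the 4 fitted receptor and ligand genes 0 passed with limma, and 3 had an unadjusted p under 0.05. NOTCH1 had a difference of -0.37 (limma adjusted p 0.0975), NOTCH2 of 0.37 (0.0638), JAG1 of 0.48 (0.0961) and DLK2 of 0.016 (0.957). Among 33 fitted genes of Notch processing and its nuclear complex, 7 passed as higher and 2 as lower (27.3%, against 18.4% of all fitted genes). FBXW7 (NM_001013415), whose ubiquitin ligase marks the Notch intracellular domain for degradation, rose from 20.9 ± 0.66 to 38.3 ± 5.18 TPM (limma adjusted p 0.00383). NUMB (NM_001005743), a Notch antagonist gene, rose from 8.01 ± 0.44 to 15.3 ± 1.63 TPM (limma adjusted p 0.00602). RFNG (NM_002917), a glycosyltransferase gene of the fringe family, rose by 0.69 and KAT2A (NM_021078), an acetyltransferase gene, fell by 0.54 (limma adjusted p 0.00596 and 0.00738), and KAT2A did not pass without DMSO replicate 2. The most abundant genes of this list were APH1A (NM_001077628), a subunit gene of gamma-secretase, with a difference of 0.067 (limma adjusted p 0.674), whose sign was negative after median scaling, and MFNG (NM_001166343), another fringe gene, with -0.32 (limma adjusted p 0.0523). MFNG passed as lower in the fit with replicate number as block (limma adjusted p 0.0023), after median scaling (0.027), with both together (0.0064) and with the filter at 5 TPM (0.0452), and in none of the other 8 alternatives.

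Of 6 fitted genes among the remaining HES, HEY and BHLHE repressors, 1 passed as higher and 0 as lower with limma (16.7%, against 18.4% of all fitted genes). At an unadjusted p under 0.05 the counts were the same. A further 3 were too low to be fitted. HEY2 (NM_012259), another Notch-responsive repressor gene, rose from 3.41 ± 0.20 to 8.33 ± 0.014 TPM (SD, n = 2 each), by 1.08 ± 0.16 (limma adjusted p 0.00306), and passed in all settings tried. BHLHE41 was at 57.5 and 43.95 TPM with DMSO and at 66.7 and 44.4 TPM with JG342, and HES2 at 7.28 and 8.94 against 6.6 and 10.1 TPM. HEY1 was at 3.04 and 2.80 TPM with DMSO and at 2.45 and 1.57 TPM with JG342, without overlap (-0.40, limma adjusted p 0.224). None of these passed, and they were picked with their values known. Of the TLE co-repressor genes 3 were fitted, 0 passed with limma and 1 had an unadjusted p under 0.05. TLE3 was the highest of them, at 74.2 and 72.7 TPM with DMSO and 71.95 and 69.4 TPM with JG342.

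Other helix-loop-helix genes that pair with E proteins moved upwards where they passed. Of 9 fitted genes of that list, 3 passed as higher and 0 as lower (33.3%, against 18.4% of all fitted genes). The list also holds LDB1, which is not a helix-loop-helix gene and did not pass. MSC (NM_005098), which encodes a repressor that pairs with E proteins in activated B cells, was at 0.21 and 1.25 TPM with DMSO and at 3.64 and 5.68 TPM with JG342 (limma adjusted p 0.00695). Its mean with DMSO was 0.73 TPM, so it passed the filter on low values only through its JG342 libraries. MSC could thus appear only as higher, and nothing is read from the 33.3% that includes it. BHLHA15 (NM_177455), the plasma cell and secretory cell factor also called MIST1, rose from 23.2 ± 0.88 to 33.5 ± 2.57 TPM (limma adjusted p 0.0197), and TWIST1 (NM_000474) from 5.65 ± 0.51 to 8.86 ± 0.45 TPM (limma adjusted p 0.0349). TWIST1 passed in none of the fits that left out 1 library, and BHLHA15 in 1 of the 4.

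**Figure D4:**
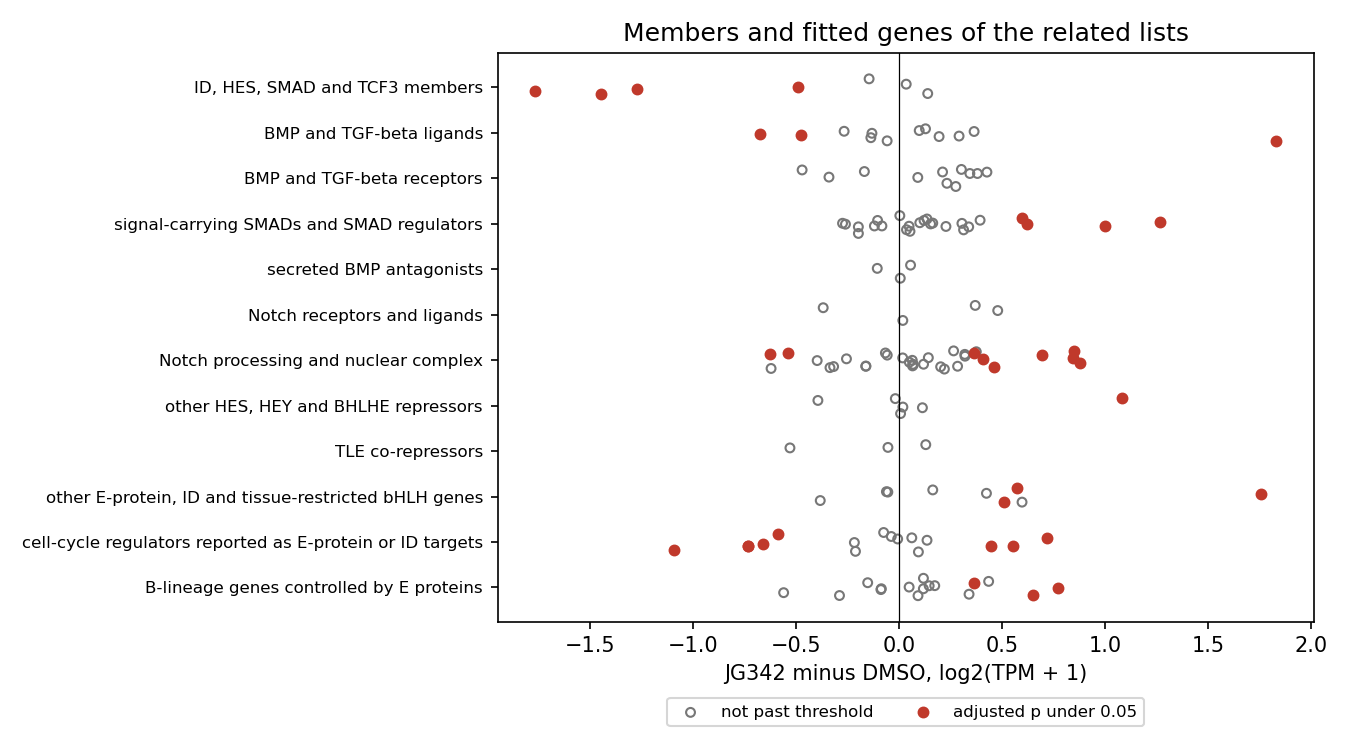
Difference between JG342 and DMSO on the log2(TPM + 1) scale for each fitted gene (1 point per gene, vertical jitter without meaning) of the member set and of the related lists, filled where limma's adjusted p was under 0.05. The 4 members past the threshold lie between -1.77 and -0.49, while the related signalling lists spread on both sides of 0.

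Genes reported as targets of E proteins and ID proteins moved in both directions. Among 16 fitted cell-cycle regulators of that kind, 3 passed as higher and 5 as lower. MYB (NM_001130172) fell from 31.4 ± 2.05 to 14.2 ± 0.83 TPM and MYC (NM_001354870) from 288 ± 4.09 to 181 ± 0.48 TPM (limma adjusted p 0.00102 and 0.00206). The cyclin genes CCND3 (NM_001136017) and CCNE1 (NM_001238) decreased by 0.74 and 0.73 (limma adjusted p values of 0.00341 and 0.0221), and CCNE1 did not pass without DMSO replicate 2 or without JG342 replicate 1. CCND2 (NM_001759), the most abundant gene of the list, had a difference of -0.077 (limma adjusted p 0.582). CDKN1A, the cyclin-dependent kinase inhibitor gene known as a target that E proteins activate, rose by 0.55 (limma adjusted p 0.0257). It was singled out after its values were seen and is also a p53 target.

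Of 16 fitted B-lineage genes controlled by E proteins, 3 passed as higher and 0 as lower (18.8%, close to the 18.4% of all fitted genes). IRF4 (NM_001195286), a plasma cell transcription factor gene on which myeloma cells depend, rose from 353 ± 0.17 to 602 ± 18.9 TPM (SD, n = 2 each), by 0.77 ± 0.087 (limma adjusted p 0.000986). PRDM1 (NM_001198), which drives plasma cell differentiation, rose from 165 ± 15.9 to 212 ± 11.01 TPM (limma adjusted p 0.041), but did not pass in any fit that left out 1 library or after median scaling (limma adjusted p 0.0974). FOXO1 (NM_002015) rose by 0.65 (limma adjusted p 0.0334) and also did not pass after median scaling (limma adjusted p 0.0537), and passed only without JG342 replicate 1 when 1 library was left out. The 3 lists of partners and targets together had 41 fitted genes, with 9 higher and 5 lower (34.1%, against 18.4% of all fitted genes). MSC is among the 9. After median scaling 4 were higher and 5 lower (22%, against 18% of all fitted genes).

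Values that moved together with the members were as follows, and their part in the members' differences was not tested. Of 25 cell division genes 20 passed as lower and 0 as higher (80.0%, against 18.4% of all fitted genes). The summed level of the 25 was 4774 and 5421 TPM with DMSO and 3067 and 3511 TPM with JG342. Of 13 fitted integrated stress response genes 11 passed as higher and 0 as lower (84.6%, against the same 18.4%). Their summed level was 351 and 598 TPM in DMSO replicates 1 and 2 and 2244 and 2515 TPM in JG342. Within DMSO, replicate 2 had the higher summed levels of stress genes and of cell division genes, the higher ID1 and ID3 and the lower HES6. That sets 1 library against 1 library, and a link between these values was not tested. All 11 measured plasma cell markers were fitted, and 3 passed as higher (IRF4, PRDM1 and CD27) and 2 as lower (JCHAIN and TNFRSF17). That is 45.5%, against 18.4% of all fitted genes. TNFRSF17 was at 761 and 581.5 TPM with DMSO and at 517 and 463 TPM with JG342 (limma adjusted p 0.0472). SDC1 did not pass, at 379 and 281 TPM with DMSO and 308 and 243 TPM with JG342. The summed level of the 11 markers was 15119 and 14841 TPM with DMSO and 10946 and 10258 TPM with JG342. The drop in that sum lay in JCHAIN, the antibody joining chain gene, at 9907 and 10383 TPM with DMSO and 5732 and 5431 TPM with JG342 (limma adjusted p 0.00117), and without it the sums were 5212 and 4458 TPM with DMSO and 5214 and 4827 TPM with JG342. B-cell markers summed to 12.98 and 16.4 TPM with DMSO and to 10.9 and 12.9 TPM with JG342, nearly all of it CR2, which did not pass (limma adjusted p 0.24), while PAX5 was at most 0.26 TPM. Summed markers of T and NK cells were 33.8 to 34.6 TPM with DMSO and 36.4 to 48.5 TPM with JG342, with 2 of 4 fitted genes higher. These were CD3G, at 3.99 and 5.1 against 9.34 and 7.92 TPM, and NCAM1, at 5.93 and 2.79 against 12.3 and 8.47 TPM. CD3E moved downwards instead, from 5.49 and 7.7 to 5.26 and 3.21 TPM, a fall short of the threshold. KLRD1 was the highest of this list with DMSO, at 18.1 and 18.6 TPM, and did not pass, while CD2 and CD8A were at most 0.27 TPM. Summed markers of monocytes were 76.6 to 84.9 and 79.9 to 82.4 TPM. Most of that sum was LYZ, at 36.96 to 46.2 TPM, and CD68, at 36.2 to 40.3 TPM, and neither passed, while CSF1R was at most 0.06 TPM. Epithelial and stromal markers summed to at most 4.05 TPM in each library, and erythroid markers to 7.71 to 11.4 TPM.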

How the data were processed

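Total RNA of 4 MM.1S libraries was sequenced on a BGISEQ-500 instrument by a service provider, per the labels' protocols. The submitters' processing notes name HISAT2 2.0.4, Bowtie2 2.2.5 and RSEM 1.2.12 without their roles; genome build, annotation and filters are not given in the sources used here. The deposited values were taken as TPM because each library sums to between 994463 and 994718. They are not counts, so no count model was used. The members and gene lists were chosen with earlier results of these data known.

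Values were analysed as log2(TPM + 1) for the 12042 genes averaging 1 TPM or more, with limma 3.58.1 in R 4.3.3 (trend in eBayes, treatment as the only term), two-sided, with Benjamini-Hochberg adjusted p under 0.05. Of these genes 2221 passed, 1304 higher and 917 lower; after median scaling 966 were higher and 1200 lower. With 2 libraries per treatment there were 2 residual and 6.89 prior degrees of freedom. On simulated data with 200 changed genes, 78.5% of changes of 0.5 and 100% of changes of 1 (log2) were recovered among 12011 and 12012 fitted genes. The changed genes were drawn from those averaging 5 TPM or more. Their noise depended only on level, without a spread particular to each gene or a replicate effect. These shares therefore need not hold for lower or more variable genes of the real data.

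Same-numbered libraries share a prefix in their label descriptions and may be pairs, but the labels do not state a paired analysis. Their deviations from the treatment means correlated at 0.27 across genes. The reported fit ignores this possible pairing, and the replicate number entered only as an alternative. With the number as a block, 4207 genes passed. Depth is not recorded in TPM; from the step between low values (genes of at least 1500 nt, values above 0.03 and up to 0.5 TPM) it was estimated at 8710000 to 9560000 reads per library. Near-identical copies were sought in GENCODE 29 transcripts by BLAST 2.17.0 (at least 90% identity over 20% of the transcript). All 10 members are named whatever their values. Of the list genes, all past the threshold are named where there are 6 or fewer, otherwise the 4 with the smallest p and the 2 with the highest level; genes named outside this rule are marked as chosen after their values were seen, or describe markers and receptors.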

Additional observations from a re-analysis of the deposited data

How the results depend on the processing

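HES6, ID1, ID2 and ID3 were lower in each of the 12 alternatives, as was TCF3, which did not pass. HES6 and ID1 passed in each alternative that kept all 4 libraries. The family was chosen by the falls of HES6 and ID1 in these libraries, so this describes the fits and does not test the falls. The number of members past the threshold was 4 in the reported fit, 2 (HES6 and ID1) without a filter on low values, and between 2 and 4 when 1 library was left out. Without the filter 828 genes passed in all, 5 of the Notch lists, 4 of the BMP lists and 4 of the partner and target lists. A fit with replicate number as block passed 4207 genes, 20 of them in the Notch lists; with block and median scaling together 3985 and 19. The block alone left 1 residual degree of freedom and an infinite prior, and it changed no member's call. Median scaling left 9 genes of the partner and target lists past the threshold in place of 14. With 1 library left out, where the lone sample is assumed to vary like the other group, 767 (without DMSO replicate 2) to 1825 genes passed, 5 to 9 of the Notch lists, 3 to 6 of the BMP lists and 5 to 8 of the partner and target lists. The cause of these shifts was not tested beyond the fewer samples or the changed set of genes. HES1 changed sign after median scaling (-0.031, also with the block), quantile normalization (-0.070) and without DMSO replicate 2 (-0.028, the lowest of a leave-one-out range up to 0.093), and APH1A after median scaling (-0.0011, also with the block) and without JG342 replicate 1 (-0.0020, with 0.14 at the other end of that range). At the estimated depth, SMAD6 and ID4 rest on too few reads for a comparison.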
